A study of Mus musculus with 4 samples.

Results

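The genes described here serve the phosphagen system of muscle: the 4 creatine kinases Ckm, Ckb, Ckmt1 and Ckmt2, the creatine synthesis enzymes Gatm and Gamt, the creatine transporter Slc6a8, the adenylate kinase Ak1 and the AMP deaminase Ampd1. They were taken by gene symbol from the deposited expression table, in which each of the 9 symbols had a row of its own among 54446 rows. The table holds polyadenylated RNA levels of satellite cells, the resident stem cells of muscle fibres, taken from the hindlimb of C57BL/6 mice and cultured in F10 medium with 10% HS and P/S. In 2 samples the cells had received siRNA that targets LncMyod, a non-coding transcript whose name refers to the muscle regulator Myod1, and in 2 samples control siRNA. All were harvested after 48 h of siRNA, although the treatment text of the controls, like that of the knockdown, gives LncMyod as the siRNA target, so the groups follow titles, descriptions and treatment tags. Whether replicates were separate cultures or animals is not stated, and p-values therefore measure only a spread between samples that may be technical.

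Creatine kinases move a phosphate group between ATP and creatine, so that phosphocreatine can refill ATP where contraction or ion pumping uses it up. The muscle isoform Ckm and the brain isoform Ckb work in the cytosol, and Ckmt1 and Ckmt2 work between the mitochondrial membranes. In the textbook course of muscle differentiation, dividing myoblasts carry mainly Ckb and myotubes come to carry mainly Ckm. Ak1 and Ampd1 belong to a second buffer, in which ADP is turned into ATP and AMP and the AMP is then deaminated to IMP.

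Levels are given in FPKM, fragments mapped to a gene, scaled to transcript length and library size, so genes of different length can be set side by side. For a transcript of 1 kb, 1 FPKM corresponded to 36.7 to 41.1 reads of 150 nt in the 4 libraries. Between 10751 and 11090 rows stood at 1 FPKM or more in each library. Mitochondrially encoded genes took 2.74% to 3.24% of all FPKM, with the lowest share in knockdown replicate 2. Differences between groups were tested by limma on log2(FPKM + 1) over the 10900 genes whose mean reached 1 FPKM, with Benjamini-Hochberg adjustment over all of them and a threshold of 0.05.

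The cultures carried the RNA of a muscle culture in differentiation. Of 10 markers of myocytes and myotubes all 10 passed the filter, led by the skeletal actin gene Acta1 with 4888 and 3151 FPKM in the knockdown libraries and 5326 and 5178 in the controls. The differentiation factor Myog had 3406 and 2793 FPKM in the knockdown libraries and 4196 and 3931 in the controls. The satellite cell and myoblast markers Myod1 and Des stood between 583 and 698 FPKM and between 221 and 287 FPKM. Of the 7 markers in that list 6 passed the filter. Pax7, the defining factor of satellite cells, fell just short of it. Pax7 had 1.4 and 0.625 FPKM in the knockdown libraries and 1.02 and 0.859 in the controls. The macrophage markers Ptprc, Adgre1 and Itgam, the endothelial marker Kdr and the glial marker S100b were listed at 0 in every library. These are 3 of 7 macrophage, 1 of 7 endothelial and 1 of 7 glial markers. Other members of these lists were detected, such as Cd14, Eng and Pmp22 with means of 1.68, 5.19 and 38.3 FPKM. The level of LncMyod itself was not analysed here.

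The phosphagen genes covered a wide range of levels, with the brain isoform of creatine kinase at the top and the muscle isoform far below it. In order of mean level over the 4 libraries, Ckb came first with 349 FPKM, followed by Gatm with 178, Ak1 with 51.1, Ckm with 15, Gamt with 9.56 and Slc6a8 with 2.1. From Ckb down to Slc6a8, the lowest library of each gene lay above the highest library of the next. The closest of these neighbours were Ckm, with at least 12.7 FPKM, and Gamt, with at most 10.6. Slc6a8 lay above Ckmt2, Ampd1 and Ckmt1 within every library, although its lowest value, 0.834 FPKM, fell just under the highest of Ckmt2, 0.846. Ckmt2, Ampd1 and Ckmt1 overlapped in their ranges. Ckb ranked 98 and Gatm 260 of all 54446 rows by mean FPKM, and Ckm ranked 3532.

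**Figure D1:**
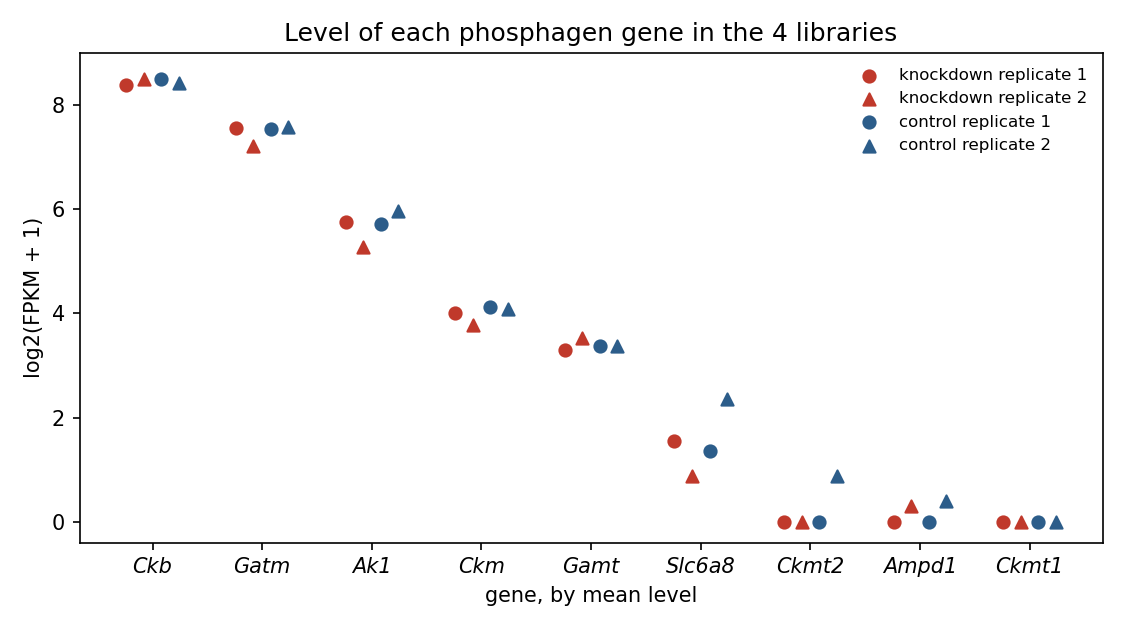
Level of the 9 phosphagen genes on the log2(FPKM + 1) scale (vertical axis), with genes in order of mean level (horizontal axis). Each point is a library, red for knockdown and blue for control, circles for replicate 1 and triangles for replicate 2; Ckb lies at the top in all 4 libraries and Ckmt1 is at 0 in all 4.

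No phosphagen gene passed the test between knockdown and control. Of the 9, 6 reached a mean of 1 FPKM and were tested, and by limma 0 of these 6 had an adjusted p under 0.05, where 0.055% of all genes tested did (0.00917% higher and 0.0459% lower). At an unadjusted p under 0.05 there were also 0 of the 6, where all genes tested gave 7.08%. In 5 of the 6 the log2 fold change was negative, against 45.2% of all genes tested, and the median was -0.20 over the 6 and 0.026 over all genes tested. In 1 of the 6, Ckm, both knockdown libraries lay below both controls, which held for 16.3% of all genes tested. In 0 of the 6 did both knockdown libraries lie above both controls (22.1% of all genes tested).

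**Figure D2:**
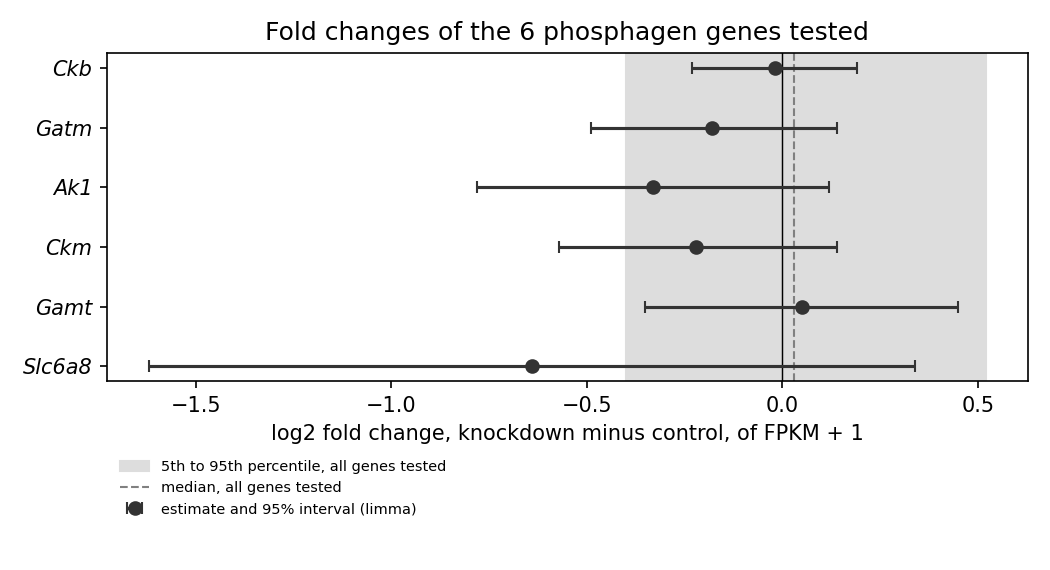
Log2 fold change of FPKM + 1, knockdown minus control (horizontal axis), for the 6 phosphagen genes tested (vertical axis), with 95% intervals from limma as bars. The grey band spans the 5th to 95th percentile of all genes tested, -0.40 to 0.52, the dashed line is their median, and every interval of a phosphagen gene crosses 0.

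Ckm (ENSMUSG00000030399; chromosome 7, 19404776 to 19422841, plus strand, GRCm38), which codes for the kinase bound to the M-band of the sarcomere and to calcium pumps, had 15 and 12.7 FPKM in the knockdown libraries and 16.4 and 16.0 in the controls. Both knockdown values were the lower ones, but knockdown replicate 1 lay close to the controls and knockdown replicate 2 apart from them. The group means were 13.8 ± 1.59 and 16.2 ± 0.259 FPKM (SD, n = 2). The log2 fold change was -0.22 ± 0.146 (SE), with a 95% interval of -0.57 to 0.14 and a limma adjusted p of 0.784, so the interval reaches from 0.673-fold to 1.10-fold. It was -0.11 without knockdown replicate 2 and -0.33 without knockdown replicate 1. An annotated antisense gene, A930016O22Rik, shares 451 exonic bases with Ckm (15.5% of them), and the strand setting of the counting is unknown; it had 0.241 FPKM in knockdown replicate 2 and was listed at 0 in the other libraries.

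Ckb (ENSMUSG00000001270; chromosome 12, 111669361 to 111672338, minus strand), the isoform of brain, smooth muscle and dividing myoblasts, had 333 and 360 FPKM in the knockdown libraries and 361 and 341 in the controls. The groups overlapped, with the lowest of the 4 values in knockdown and the highest in control. Its means were 346 ± 18.8 and 351 ± 14.2 FPKM (SD, n = 2). The log2 fold change was -0.02 ± 0.0847 (SE; limma adjusted p 0.971). The 95% interval of -0.23 to 0.19, or 0.855-fold to 1.14-fold, was the narrowest of the 6 genes.

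The 2 cytosolic kinases differ by more than an order of magnitude in these cells, so the sequences around their start sites are set side by side. RefSeq windows (GRCm38.p6) from 250 bases before to 50 bases after the start site were found for 7 of the 9 genes, in 11 windows, and none was matched for Slc6a8 and Ampd1. Capitals mark the E box CANNTG, the element bound by myogenic factors such as Myod1, which reads the same on both strands. Ckm lies at chr7:19410844-19411143 on the plus strand and Ckb at chr12:111672289-111672588 on the minus strand, both printed 5′ to 3′ in the direction of the gene.
Ckm: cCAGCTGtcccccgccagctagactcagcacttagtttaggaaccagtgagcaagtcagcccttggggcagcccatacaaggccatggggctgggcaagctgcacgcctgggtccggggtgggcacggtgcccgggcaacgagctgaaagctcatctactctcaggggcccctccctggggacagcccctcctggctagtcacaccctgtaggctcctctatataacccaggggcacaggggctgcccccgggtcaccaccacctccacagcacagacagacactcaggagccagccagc
Ckb: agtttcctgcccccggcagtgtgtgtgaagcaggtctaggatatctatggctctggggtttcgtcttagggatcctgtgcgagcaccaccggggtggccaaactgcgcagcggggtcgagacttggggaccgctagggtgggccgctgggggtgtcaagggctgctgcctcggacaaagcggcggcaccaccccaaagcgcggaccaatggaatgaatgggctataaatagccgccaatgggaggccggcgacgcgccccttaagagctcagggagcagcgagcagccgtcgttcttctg
The Ckm window held 1 E box, of the form CAGCTG, at position -249 relative to the start site, and the Ckb window held 0. An E box was found in 72.3% of 32851 such windows of all genes and the form CAGCTG, which is contained in the E box, in 16.3%. The Ckb window held TATAAA at -28, a sequence found on either strand in 13.6% of windows, and also CCAAT at -46 and -16 (37.4% of windows). A match to the MEF2 motif at -29 overlaps that TATAAA (3.19% of windows). The Ckm window held no match to TATAAA, none to the MEF2 motif and none to CCAAT. It does hold the similar string TATATAA upstream of the start site, a form that was not searched for. The lack of a TATAAA match is therefore no difference in kind from Ckb. These are matches of letters in a window and not measured binding sites, and the muscle enhancer of Ckm lies outside the window.

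Creatine kinase RNA was almost wholly of the brain isoform in every library. Ckb stood 22.3-fold and 28.3-fold above Ckm in knockdown replicates 1 and 2 and 22.1-fold and 21.3-fold above it in control replicates 1 and 2. Ckm took 4.30% and 3.41% of the summed FPKM of the 4 kinases in knockdown and 4.34% and 4.47% in control. Both knockdown shares were the lower ones, and that of knockdown replicate 1 differed little from the controls. The difference in share was -0.55 percentage points (two-sided exact permutation test, p = 0.333, the smallest p that 2 samples against 2 can give), and it was -0.10 without knockdown replicate 2 and -0.99 without knockdown replicate 1. The log2 ratio of Ckm to Ckb was -4.65 ± 0.245 in knockdown and -4.44 ± 0.0353 in control (SD, n = 2; exact permutation p = 0.333). That difference of -0.21 was -0.04 without knockdown replicate 2 and -0.38 without knockdown replicate 1. Summed over the 4 kinases, the level was 348 and 372 FPKM in the knockdown libraries and 378 and 358 in the controls, and the groups overlapped (exact permutation p = 0.667).

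**Figure D3:**
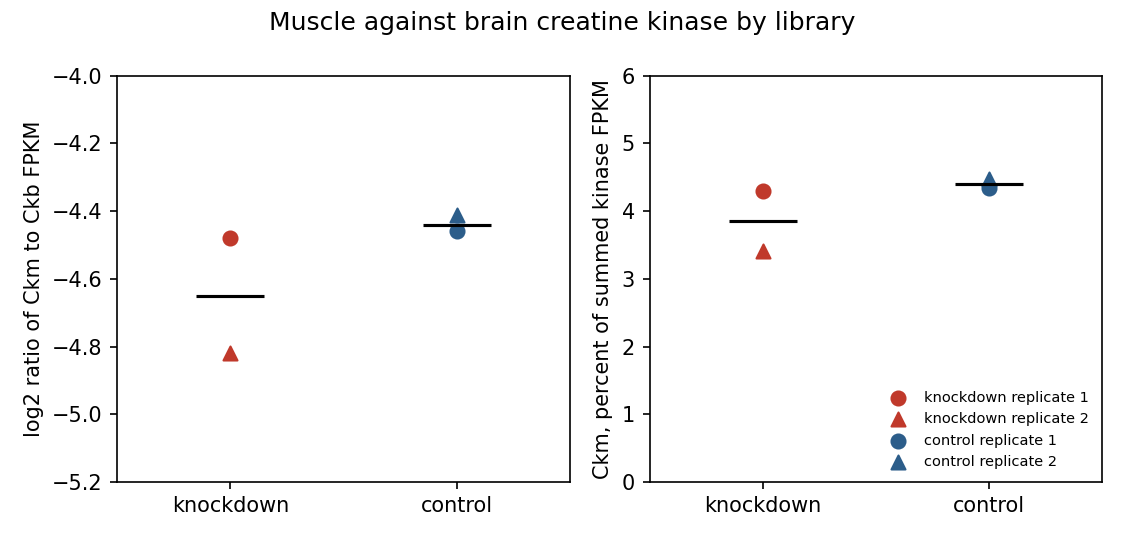
Left, log2 ratio of Ckm to Ckb FPKM (vertical axis, not starting at 0); right, Ckm in percent of the summed FPKM of Ckm, Ckb, Ckmt1 and Ckmt2 (vertical axis, from 0), for knockdown and control (horizontal axis). Points are libraries and bars are group means; knockdown replicate 2, at -4.82 and 3.41%, lies below the other 3 libraries.

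The mitochondrial kinases were at or near 0. Ckmt1 (ENSMUSG00000000308; chromosome 2, 121357714 to 121363737, plus strand), the isoform of many tissues, was listed at 0 in all 4 libraries. Ckmt2 (ENSMUSG00000021622; chromosome 13, 91853387 to 91876885, minus strand), the isoform of heart and skeletal muscle, was listed at 0 in both knockdown libraries and in control replicate 1 and had 0.846 FPKM in control replicate 2. On its single annotated transcript of 1486 bases that value corresponds to 49.1 reads of 150 nt, all in that library. Both were below the filter and no fold is given. Genes of the proteins that work beside the mitochondrial kinases were well above 0: the ATP/ADP carrier Slc25a4, the form of heart and skeletal muscle, had 309 and 326 FPKM in the knockdown libraries and 343 and 334 in the controls. Its log2 fold change was -0.09 (limma adjusted p 0.832), and the phosphate carrier Slc25a3 likewise had -0.09 (limma adjusted p 0.865). Of the 6 listed partners, which also include Slc25a5 and the porins Vdac1 to Vdac3, 6 were tested, 0 passed in either direction, and the median was -0.06.

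Creatine synthesis was represented by an abundant first enzyme and a much lower second one. Gatm (ENSMUSG00000027199; chromosome 2, 122594467 to 122611303, minus strand), which joins arginine and glycine into guanidinoacetate, had 188 and 147 FPKM in the knockdown libraries and 186 and 190 in the controls. Knockdown replicate 1 lay within the range of the controls and knockdown replicate 2 below the other 3 libraries. The log2 fold change was -0.18 ± 0.129 (SE), with a 95% interval of -0.49 to 0.14 and a limma adjusted p of 0.806. Without knockdown replicate 1 it was -0.35, and without knockdown replicate 2 it was -0.0018.

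Gamt (ENSMUSG00000020150; chromosome 10, 80258151 to 80261012, minus strand), which methylates guanidinoacetate to creatine, had 8.87 and 10.6 FPKM in the knockdown libraries and 9.38 and 9.35 in the controls. The knockdown libraries lay on either side of the controls, which nearly coincided. Its log2 fold change of 0.05 (95% interval -0.35 to 0.45, limma adjusted p 0.963) was the only positive one of the 6, and it was 0.17 and -0.07 without knockdown replicates 1 and 2. The list of genes that supply arginine, glycine and methyl groups had 10 of 11 members tested, and 0 passed in either direction, with 5 positive, 5 negative and a median of 0.01. Shmt2, the mitochondrial enzyme that makes glycine from serine, had 64.6 and 81.7 FPKM in the knockdown libraries and 100 and 85.1 in the controls, giving a log2 fold change of -0.34 (limma adjusted p 0.698). Oat, which converts the ornithine left over by Gatm, had 153 and 142 FPKM against 133 and 132, giving a log2 fold change of 0.15 (limma adjusted p 0.752).

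Slc6a8 (ENSMUSG00000019558; chromosome X, 73673150 to 73682502, plus strand), the transporter that brings creatine into the cell, had 1.92 and 0.834 FPKM in the knockdown libraries and 1.55 and 4.11 in the controls. The groups overlapped, with the highest value in control replicate 2 and the lowest in knockdown replicate 2. The log2 fold change of -0.64 ± 0.401 (SE) had the widest interval of the 6 genes, -1.62 to 0.34 (limma adjusted p 0.767). Leaving out control replicate 2 gave -0.14 and leaving out control replicate 1 gave -1.14, while -0.31 and -0.98 were found without knockdown replicates 2 and 1. The gene has 13 annotated transcripts of 404 to 3964 bases, so an assignment of fragments among them can move its value. Of the 2 routes to creatine, the first synthesis enzyme Gatm had 147 FPKM or more in every library, against at most 4.11 for the transporter. The second synthesis enzyme, Gamt, lay between them with 8.87 to 10.6 FPKM.

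Ak1 (ENSMUSG00000026817; chromosome 2, 32621758 to 32635058, plus strand), the cytosolic adenylate kinase of muscle, had 53.1 and 37.7 FPKM in the knockdown libraries and 51.9 and 61.6 in the controls. Knockdown replicate 1 lay between the controls and knockdown replicate 2 below all others. The means were 45.4 ± 10.9 and 56.7 ± 6.87 FPKM (SD, n = 2), and the log2 fold change was -0.33 ± 0.185 (SE), with a 95% interval of -0.78 to 0.12 and a limma adjusted p of 0.745. It was -0.09 and -0.57 without knockdown replicates 2 and 1, respectively, and -0.21 and -0.45 without control replicates 2 and 1.

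Among the other adenylate kinases, 4 of 8 passed the filter, 0 were called and 3 of the 4 were positive, with a median of 0.15. Ak6, a nuclear member, had 97.4 and 103 FPKM against 111 and 107, with a log2 fold change of -0.12 (limma adjusted p 0.814). Ak7, Ak8 and Ak9 were listed at 0 in every library.

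Ampd1 (ENSMUSG00000070385; chromosome 3, 103074014 to 103099720, plus strand), the AMP deaminase of mature muscle fibres, was close to 0. It was listed at 0 and at 0.239 FPKM in knockdown and at 0.0011 and 0.313 in control, below the filter in every library. The related deaminases had higher levels: Ampd2 had 4.42 and 3.91 FPKM in the knockdown libraries and 3.23 and 2.91 in the controls, giving a log2 fold change of 0.34 (95% interval -0.13 to 0.81, limma adjusted p 0.747), and Ampd3 had 8.09 to 9.76 over the 4 libraries. The knockdown values of Ampd2 were the higher ones, without overlap, which held for 22.1% of all genes tested. Adss, which starts the return from IMP to AMP, had 22.0 and 24.3 FPKM against 21.2 and 18, giving a log2 fold change of 0.23 (limma adjusted p 0.766). In the list of AMP and IMP turnover 12 of 14 members were tested, 0 passed in either direction, 8 were negative and the median was -0.07.

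AMP-activated protein kinase senses the AMP that this second buffer produces. Of its 7 subunit genes 5 were tested and 0 passed, with 4 of the 5 positive and a median of 0.16. The catalytic subunit Prkaa1 had 11.2 and 8.65 FPKM in the knockdown libraries and 7.71 and 6.55 in the controls. The knockdown values were again higher without overlap (22.1% of all genes tested), and the log2 fold change was 0.42 (95% interval -0.05 to 0.89, limma adjusted p 0.698). The regulatory subunit Prkab1 had 14.3 and 15.5 FPKM against 11.8 and 14.6, giving a log2 fold change of 0.16 (limma adjusted p 0.858).

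The enhancer of Ckm is a textbook target of myogenic factors, and the list of such factors with their partners and inhibitors had 21 of 22 members tested. By limma 0 passed in either direction, and 2 of the 21 had an unadjusted p under 0.05, where 7.08% of all genes tested did. In 7 of the 21 both knockdown libraries lay below both controls and in 3 above them, against 16.3% and 22.1% of all genes tested. The median was -0.13, with 13 negative and 8 positive. The log2 fold change of Myog was -0.40 (95% interval -0.66 to -0.14, limma adjusted p 0.607), on the values given above. The inhibitor Msc had 13.6 and 10.9 FPKM in the knockdown libraries and 18.1 and 17.5 in the controls, giving a log2 fold change of -0.51 (limma adjusted p 0.627). Myog, Msc and Myod1 are among the 7 that lay below both controls in both knockdown libraries. Myod1, with 583 and 667 FPKM against 698 and 691, had -0.15 (limma adjusted p 0.752). Mef2a, with 8.26 and 7.28 FPKM against 6.91 and 4.70, had 0.38 (limma adjusted p 0.747).

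**Figure D4:**
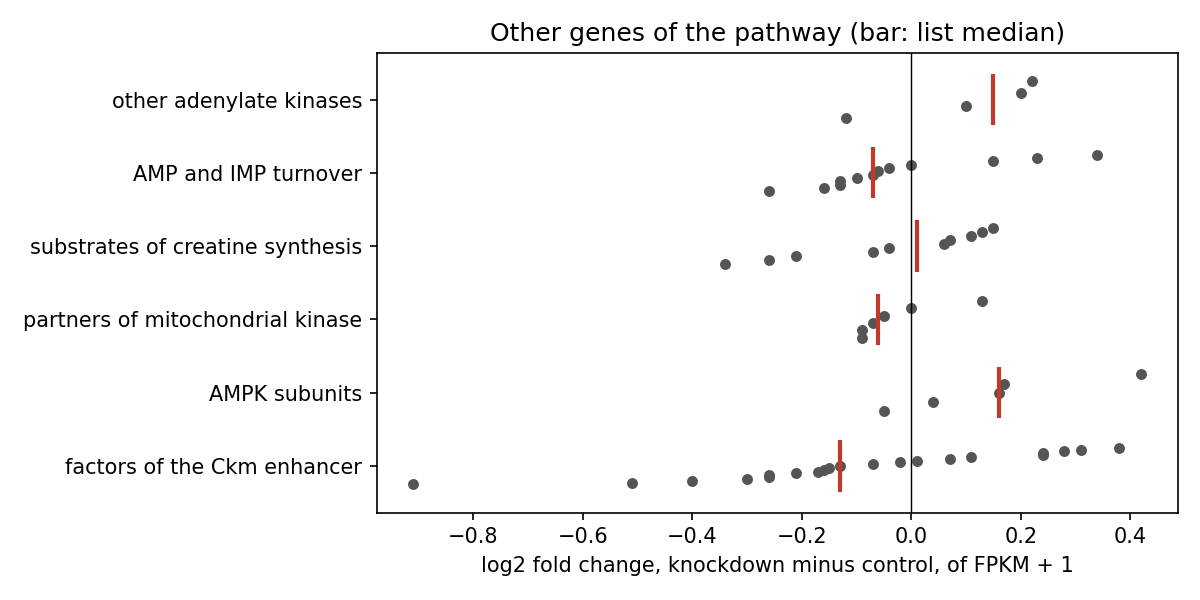
Log2 fold change of FPKM + 1, knockdown minus control (horizontal axis), of each tested gene in the 6 lists of related genes (vertical axis). Points are genes and red bars are list medians, which run from -0.13 for the factors of the Ckm enhancer to 0.16 for the subunits of AMP-activated protein kinase (AMPK); 0 genes passed the adjusted threshold.

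Knockdown replicate 2 held the lowest value of Gatm, Ak1, Ckm and Slc6a8, and it was also the library with the least RNA of differentiated muscle. All 10 myocyte and myotube markers were lower in it than in knockdown replicate 1, where this held for 45.8% of all genes tested, and 0 of the 10 were at 0 in any group. Summed over the 10, the level was 6937 FPKM in knockdown replicate 2, 9590 in knockdown replicate 1 and 10346 to 10840 in control. Relative to the control mean, the log2 values of the 10 had a median of -0.54 in knockdown replicate 2, against -0.02 in knockdown replicate 1. Replicate 1 was not at the control level for each marker, with -0.25 for Myog, -0.34 for Mymk, -0.43 for Actn2 and -0.72 for Myh8. In 5 of the 10 markers both knockdown libraries lay below both controls (16.3% of all genes tested), in 0 above them, and 4 had an unadjusted limma p under 0.05 (7.08% of all genes tested), but 0 passed the adjusted threshold. In knockdown replicates 2 and 1 the values relative to the control mean were -0.33 and -0.11 for Ckm, -0.57 and -0.09 for Ak1 and 0.03 and -0.08 for Ckb. Of the 7 satellite cell and myoblast markers, 1 was lower in knockdown replicate 2 than in replicate 1 (45.8% of all genes tested). This was Pax7, with 0.625 FPKM in knockdown replicate 2 and 1.4 in knockdown replicate 1. Here replicate 1 was the library further from the controls. The 7 summed to 1020 FPKM in knockdown replicate 1, 1246 in knockdown replicate 2, and 1230 and 1216 in the controls. Relative to the control mean, the tested ones had a median of -0.28 in replicate 1 and 0.08 in replicate 2. In such cultures fewer differentiated cells and less RNA per cell cannot be told apart.

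Set against the mean log2 level of the same 10 markers in each library, the group difference was 0.07 for Ckm, 0.11 for Gatm and -0.05 for Ak1, with exact permutation p-values of 0.667, 0.667 and 1. It was 0.26 for Ckb, 0.33 for Gamt and -0.36 for Slc6a8. The same reference is taken from every gene, so all these differences rise by the same amount. That Ckm and Gatm thereby had the opposite sign to that above follows from the shift and is not particular to them. The part of the muscle markers in the values of these genes was not tested further. Markers of other cell types were summed in the same way. The smooth muscle and pericyte list, led by Acta2 and Tagln, summed to 2783 and 2708 FPKM in the knockdown libraries and 3323 and 3147 in the controls. The sum rested on Acta2, with 2670 and 2576 FPKM in the knockdown libraries and 3165 and 3021 in the controls. In that list 4 of the 9 genes were under 1 FPKM in every library, with Myh11 and Rgs5 near 0. Of its 5 tested genes, 3 lay below both controls in both knockdown libraries and 0 above them (16.3% and 22.1% of all genes tested). By limma 0 of the 5 passed the adjusted threshold. The fibro-adipogenic list, led by Islr and Col3a1, summed to 78.0 and 67.3 FPKM in the knockdown libraries and 80.3 and 89.2 in the controls, with 6 of its 10 genes under 1 FPKM in every library, and was likewise lowest in knockdown replicate 2. Its 4 tested genes went both ways, with 2 above and 2 below both controls in both knockdown libraries (22.1% and 16.3% of all genes tested). Islr had a log2 fold change of -0.59 (limma adjusted p 0.607), Col3a1 had 0.25 (limma adjusted p 0.712), and Cd34 had 4.52 and 4.62 FPKM in the knockdown libraries against 1.36 and 1.17, or 1.3 on the log2 scale (limma unadjusted p 0.000582, adjusted p 0.265). The endothelial list, led by Eng and Tek, summed to 5.88 to 8.45 FPKM over the 4 libraries and the macrophage list, led by Cd14 and Cd68, to 2.27 to 3.40. The Schwann and glial list summed to 19.8 and 45.6 FPKM in the knockdown libraries and 47.3 and 42.5 in the controls, and rested on Pmp22, with the defining Sox10 near 0.

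**Figure D5:**
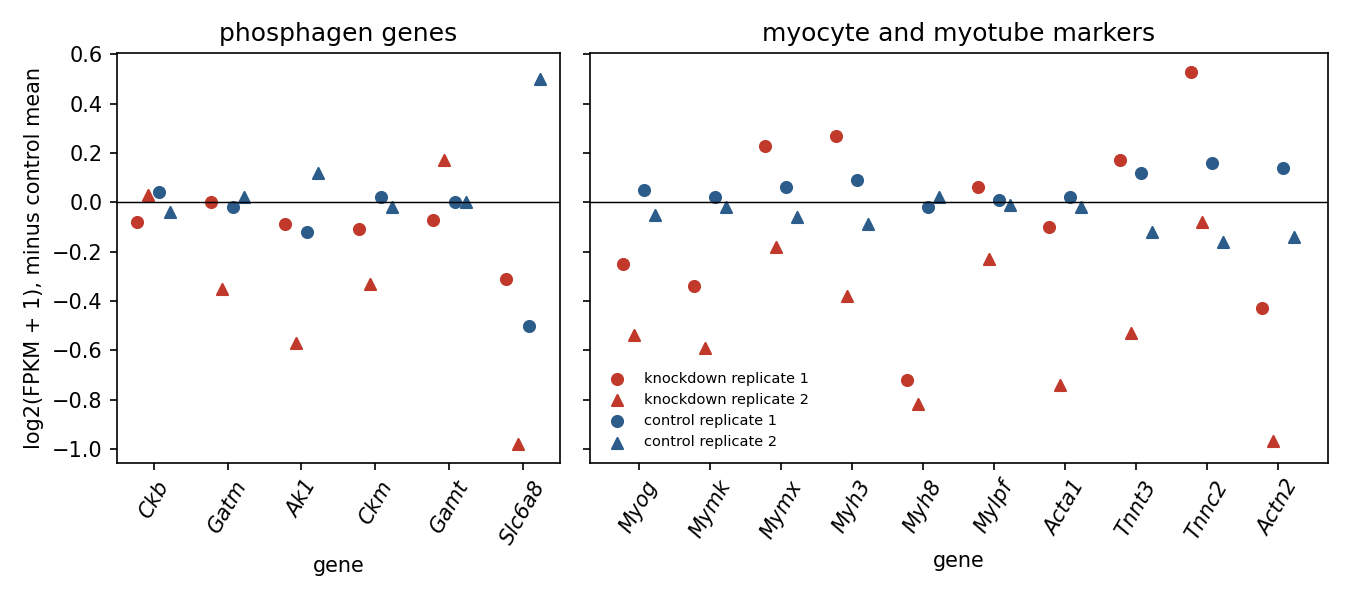
Log2(FPKM + 1) of each library minus the control mean (vertical axis), for the 6 phosphagen genes tested (left) and the 10 markers of myocytes and myotubes (right; genes on the horizontal axes). Red points are knockdown and blue points control, circles replicate 1 and triangles replicate 2; knockdown replicate 2 lies lower than replicate 1 for all 10 markers and for 4 of the 6 phosphagen genes.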

How the data were processed

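The authors deposited 1 value for each gene in each sample, taken here as FPKM from the form of the values, since no unit is stated. Per the submitters' processing notes, the reads were handled with HISAT2 2.1.0 and StringTie 1.3.3 on mm10, beside bcl2fastq 2.19, SAMtools 1.3 and Trimmomatic 0.36, with no role or order stated. The annotation release is not given in the sources used here, nor is a strand setting. SMART-Seq v4 cDNA was sequenced as read pairs of 150 nt, per the labels.

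In genes with 1 exon and 1 transcript that overlap no other gene, FPKM times length was a whole number of steps, to within 0.1, in 97.7% to 98.6% of low values (1247 to 1364 in each library). The step, 0.162 to 0.182, gives the sequenced bases behind a value. Whole read counts were not recovered for other genes, so no count model was used.

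Of 54446 rows, 29477 were at 0 in every sample and 54409 identifiers were in GENCODE M21 (GRCm38, the assembly of mm10), the source of coordinates. limma 3.58.1 (R 4.3.3), with a trend, was run on log2(FPKM + 1), two-sided, without rescaling; residual degrees of freedom were 2 and prior ones 4.09. The limma step was tried on simulated normal values drawn from the fitted model, which cannot show how it behaves where its assumptions fail. Fold changes on this scale understate those of low genes. Alternatives were a replicate block, quantile normalization, median ratio scaling, a pseudocount of 0.1, no filter, a filter at 5 FPKM, limma without trend, leaving out each sample, and the level relative to 10 muscle markers, which was added after seeing the data. Python 3.11.15, numpy 2.4.6, pandas 2.3.3 and matplotlib 3.10.9 were used for summaries.

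The genes and lists were chosen with earlier results of these data known. Named were the 9 genes; per related list, genes past the threshold or else the 2 (4 for enhancer factors) with the lowest p; per marker list, the 2 highest; and the 3 genes nearest to each of the 2 most abundant members. Other names were chosen after their values were seen. A gene that the rule selects is not reported here.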

Additional observations from a re-analysis of the deposited data

How the results depend on the processing

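Under 11 alternatives, each run across all genes, 0 phosphagen genes passed the threshold. Of 71 fold changes of single phosphagen genes under alternatives, 64 had the direction reported and 7 the opposite one. The replicate block, both changes of filter and the fit without trend cannot change these estimates in this design. Their part of the 64 was therefore fixed in advance. The opposite ones were those of Ckb with quantile normalization (0.01), without knockdown replicate 1 (0.03), without control replicate 1 (0.02) and relative to the muscle markers (0.26), of Gatm and Ckm relative to the muscle markers (0.11 and 0.07), and of Gamt without knockdown replicate 2 (-0.07, in a range of -0.07 to 0.17 with 1 library left out). Relative to the muscle markers the differences of all genes rise by the same amount. The cause of the other reversals was not tested. The log2 ratio of Ckm to Ckb ranged from -0.38 to -0.04, the share of Ckm from -0.99 to -0.10 percentage points and the log2 of the summed kinases from -0.08 to 0.02 when 1 library was left out.

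Over all genes, 1 was called higher and 5 lower. The higher count was 2 with median ratio scaling, 2 with a pseudocount of 0.1, 0 with no filter and 2 to 4 with 1 library left out. The lower count was 2 with the replicate block, 0 with no filter, 3 without the trend and 2 to 11 with 1 library left out. With no filter, 1508 of 24969 genes had an unadjusted limma p under 0.05, a smaller share than the 772 of 10900 (7.08%) with the filter. Replicate numbers are shared between the groups, but the correlation of same-numbered deviations was -0.0209 and nothing in the labels pairs the samples. With the replicate block 0 phosphagen genes passed. The difference in log2 ratio of Ckm to Ckb stayed at -0.21, as it must when each group holds both replicate numbers. A lone sample was assumed to vary like the other group. With 2 samples per group, the 95% interval ran from 0.855-fold to 1.14-fold for the abundant Ckb and from 0.325-fold to 1.26-fold for Slc6a8.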

Other observations

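Over the 4 libraries, the 3 genes whose centred log2(FPKM + 1) values lay nearest to those of Ckb were Ctsb, a lysosomal protease, Rab1a, a regulator of transport from the endoplasmic reticulum, and Calr, a calcium-binding chaperone, at distances of 0.00429, 0.00851 and 0.00979 among 4526 genes whose mean reached 10 FPKM. Calr had 168 and 181 FPKM in the knockdown libraries and 181 and 172 in the controls. Within a distance of 0.1 there were 331 genes, since values that hardly vary are common. Nearest to Gatm were Gm10925, Nars, the asparaginyl-tRNA synthetase, and Mpp1, a membrane scaffold protein, at 0.0209, 0.0220 and 0.0262, with 63 genes within 0.1. Nars had 566 and 436 FPKM in the knockdown libraries and 557 and 567 in the controls, and so shared with Gatm the lower value in knockdown replicate 2. These distances over 4 samples are descriptions and carry no test.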
